A study of Mus musculus with 16 samples.

Results

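The clustered protocadherin genes lie side by side on mouse chromosome 18 as an alpha, a beta and a gamma cluster. Their exons were described here in mHiPPoE-2, an immortalised line of hippocampal neurons of the mouse, from counts of ribodepleted total RNA. The members are the exon bins (non-overlapping pieces of annotated exons) of a row whose gene identifier holds a gene named Pcdha, Pcdhb or Pcdhg, which makes 167 of the 468583 bins of the table. Matched by position to the GENCODE annotation of GRCm38, 129 bins belonged to 58 variable exons (14 alpha, 22 beta and 22 gamma), 23 to the shared constant exons, 14 to other annotated exons and 1 to the overlap of Pcdhb21 and Pcdhb22. The variable exons ran from position 36930184 (Pcdha1) to 37822134 (Pcdhgc5), and the last gamma constant exon ended at 37841873. The members were chosen by gene name, with earlier results of these data known.

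In the alpha and gamma clusters each large variable exon has its own promoter and is spliced to the same few constant exons of its cluster, so that the variable exon gives the extracellular and transmembrane part of the protein and the constant exons give a shared cytoplasmic end. The beta genes are single large exons without constant exons. The proteins are homophilic adhesion molecules of neurons that mediate self-recognition of dendrites and axons. Single neurons turn on a small set of the alternate promoters, a choice tied to DNA methylation, CTCF and cohesin, whereas the C-type exons at the end of the alpha and gamma clusters (Pcdhac1, Pcdhac2, Pcdhgc3, Pcdhgc4 and Pcdhgc5) are used more evenly across neurons.

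There were 8 groups of 2 libraries, all from this line without further treatment and all of strain Crl:CFW(SW)-024. METTL3 KO was 1 clonal isolate edited with Cas9 in Mettl3, which encodes the enzyme that writes m6A. KO rescue was 2 clonal isolates edited in Rbm45 that also carried F-HA-tagged RBM45 with its guide site mutated, and RBM45 KO was 2 clonal isolates edited in Rbm45, which encodes an RNA-binding protein. Cas9 control was 2 clonal isolates that had received Cas9 and no guide RNA, and WT was the unedited line. Which control or rescue clone is called clone 1 or 2 is not settled by the labels, so these numbers are names only. The labels do not say whether 2 libraries of a group came from separate cultures, and p-values between libraries measure only that spread. The edited unit is the clone, so METTL3 KO against WT and clone against clone compare lines and not genotypes.

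Exon-table totals were 7066018 to 18783523 counts per library. Levels are CPM, taken on library sizes scaled by TMM, on which 3 counts stood for 0.16 to 0.42 CPM, so most variable exons rested on few counts. Over whole gene bodies Mettl3 had 3.71 and 3.35 CPM in METTL3 KO, against 11.7 and 8.79 CPM in WT. Rbm45 had 21.1 to 25.9 CPM in KO rescue, 5.7 to 10.8 CPM in RBM45 KO, 12.8 to 16.7 CPM in Cas9 control and 11.1 and 14.2 CPM in WT, so that transcripts of both edited genes remained. Of 12 neuron markers, Rbfox3, Snap25, Stmn2, Nefl, Nefm and Dcx had at most 3 counts in any library, and Map2 (39.7 to 138 CPM) made up most of the list's sum of 42.3 to 139 CPM. The mesenchymal markers Col1a1, Col1a2, Vim and Fn1 summed to 1399 to 4679 CPM. Col1a2 was low (0.14 to 5.47 CPM), and Col1a1 ranged from 29.2 to 1418 CPM, so the sum was mainly Col1a1, Vim and Fn1. The astrocyte markers summed to 0.19 to 25.1 CPM, the oligodendrocyte markers to 0.25 to 2.7 CPM and the microglia markers to 31.3 to 52.7 CPM, with Aqp4, Olig2 and Itgam at 3 counts or fewer. Cx3cr1, at 31.2 to 52.5 CPM over its whole gene body, made up most of the microglia sum. With the exon bins of each gene added together instead, none of the 3 microglia markers passed a filter on low counts.

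The alpha cluster was silent or nearly so in every line. The longest bins of its 14 variable exons held 9 counts over the 16 libraries together, and 12 of the 14 had none. Pcdha10 had 1 count in 1 KO rescue clone 2 library, and the C-type exon Pcdhac2 had at most 3 counts in a library. The longest alpha constant bin had 0.52 and 0.069 CPM in METTL3 KO, at most 4 counts in a library, and 0 to 0.15 CPM in the other groups. No alpha exon passed the filter on low counts, so none was tested. A count of 0 allows a level of up to 0.16 to 0.42 CPM, depending on the library, so lower levels were not detectable at this depth.

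The gamma cluster was expressed in every line, and its C-type exon Pcdhgc3 carried the largest part of the counts. The Pcdhgc3 bin (chromosome 18, 37807875 to 37808977, plus strand) was read as follows. Pcdhgc3 had 29.4 and 23.7 CPM in METTL3 KO, 17.8 and 18 CPM in KO rescue clone 2, 19.6 and 22.6 CPM in KO rescue clone 1 and 21 and 20.6 CPM in RBM45 KO clone 2. It had 20.4 and 18.9 CPM in RBM45 KO clone 1, 12 and 12.8 CPM in Cas9 control clone 2, 13.3 and 12.4 CPM in Cas9 control clone 1 and 18.7 and 15.8 CPM in WT. It was lowest in the 4 Cas9 control libraries and highest in METTL3 KO, and the libraries of METTL3 KO did not overlap those of any other group. In bulk RNA, fewer cells that use an exon and less RNA per cell cannot be told apart. Of the summed level of the 22 gamma variable exons, Pcdhgc3 took 55.3% and 51.7% in METTL3 KO, 39.5% and 44.8% in KO rescue clone 2, 48.3% and 54.4% in KO rescue clone 1 and 48.7% and 49.6% in RBM45 KO clone 2. It took 60.8% and 57.4% in RBM45 KO clone 1, 44.8% and 44.7% in Cas9 control clone 2, 41.8% and 39.9% in Cas9 control clone 1 and 51.9% and 50.5% in WT. The lowest of these shares, 39.5%, had an exact 95% binomial (Clopper-Pearson) interval of 35.6% to 43.6%, and the highest, 60.8%, one of 55.3% to 66.2%. These intervals, like the counting limits elsewhere, cover counting error only. The shares also depend on the bins read, and the Pcdhgc3 bin holds 1103 bases of an exon of 3380. Per kilobase Pcdhgc3 was a larger part of the sum in these 2 libraries. It stood at 16.2 of 27.2 CPM per kilobase in KO rescue clone 2 replicate 1 and 18.5 of 23.7 in RBM45 KO clone 1 replicate 1.

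**Figure D1:**
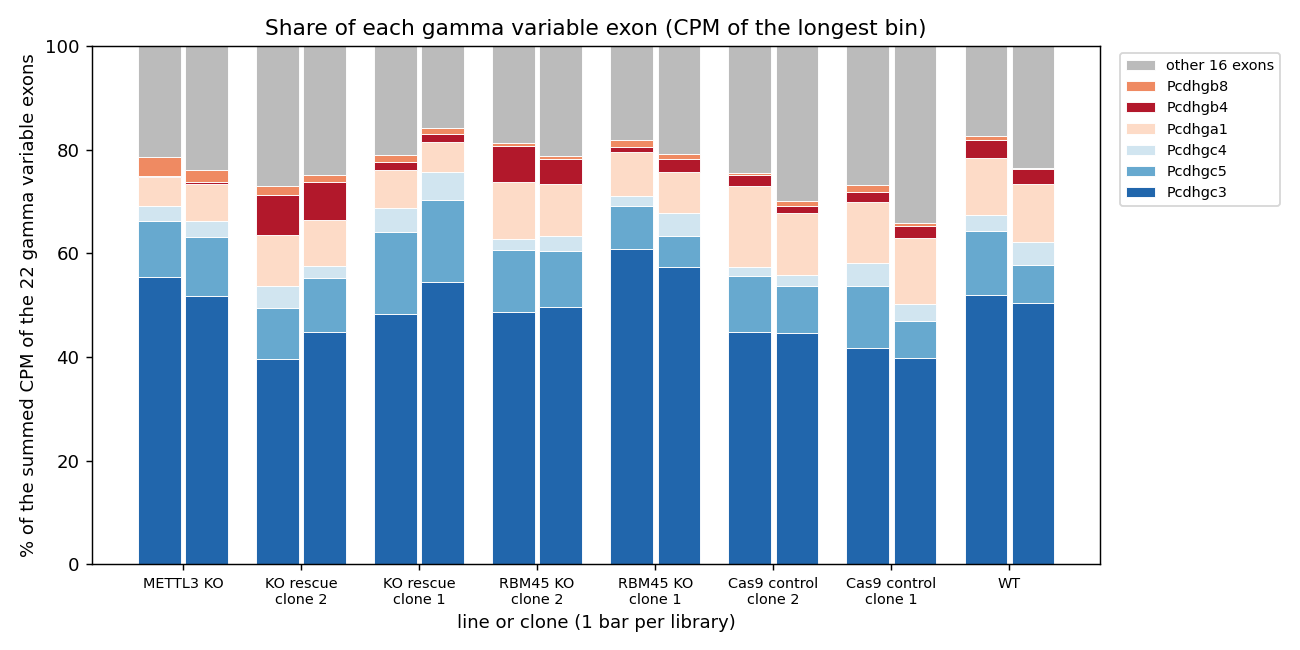
Share (%) of 6 gamma variable exons, and of the other 16 together, in the summed CPM of the 22 longest bins, with 1 bar for each of the 16 libraries. Pcdhgc3 is the largest part of every bar, and Pcdhgb4 is widest in KO rescue clone 2 and RBM45 KO clone 2.

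The gamma constant exons are shared between the transcripts of the cluster and were read from their longest bin. It held 34.4 and 28.7 CPM in METTL3 KO, 23.6 and 20.9 CPM in KO rescue clone 2, 25.4 and 26.4 CPM in KO rescue clone 1 and 27.2 and 26.6 CPM in RBM45 KO clone 2. It had 21.9 and 20.5 CPM in RBM45 KO clone 1, 12.9 and 15.5 CPM in Cas9 control clone 2, 15.5 and 14.3 CPM in Cas9 control clone 1 and 16.9 and 16.8 CPM in WT. The METTL3 KO libraries were again above those of every other group, and the Cas9 control and WT libraries were the lowest. Per kilobase of bin, the constant bin stood at 8.64 to 23.1 CPM per kilobase over the 16 libraries. Pcdhgc3 stood at 10.9 to 26.6 CPM per kilobase, and the other 21 variable exons together at 5.21 to 11.1 CPM per kilobase. Per kilobase, Pcdhgc3 alone exceeded both the other 21 together and the constant bin in each of the 16 libraries.

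The other C-type exons were lower. Pcdhgc5 had 5.8 and 5.26 CPM in METTL3 KO, 4.5 and 4.22 CPM in KO rescue clone 2, 6.37 and 6.6 CPM in KO rescue clone 1 and 5.16 and 4.49 CPM in RBM45 KO clone 2. It had 2.8 and 1.94 CPM in RBM45 KO clone 1, 2.91 and 2.57 CPM in Cas9 control clone 2, 3.79 and 2.2 CPM in Cas9 control clone 1 and 4.43 and 2.29 CPM in WT. Pcdhgc5 was high in METTL3 KO, both rescue clones and RBM45 KO clone 2, and 1 of its 2 WT libraries reached the level of these groups while the other did not. Pcdhgc4 had 1.55 and 1.38 CPM in METTL3 KO, 1.91 and 0.91 CPM in KO rescue clone 2, 1.94 and 2.26 CPM in KO rescue clone 1 and 0.90 and 1.18 CPM in RBM45 KO clone 2. It had 0.62 and 1.44 CPM in RBM45 KO clone 1, 0.47 and 0.63 CPM in Cas9 control clone 2, 1.38 and 1.02 CPM in Cas9 control clone 1 and 1.11 and 1.39 CPM in WT. Pcdhgc4, known in mice for its role in the survival of cortical interneurons, was lowest in Cas9 control clone 2, and most groups overlapped. Per kilobase, the means over the 16 libraries were 1.69 CPM for Pcdhgc5 and 0.52 CPM for Pcdhgc4, against 16.8 CPM for Pcdhgc3.

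Among the alternate (A-type and B-type) gamma exons, the first of the cluster, Pcdhga1, had the highest mean level per kilobase (1.38 CPM per kilobase over the 16 libraries). Pcdhga1 had 2.96 and 3.25 CPM in METTL3 KO, 4.42 and 3.57 CPM in KO rescue clone 2, 2.9 and 2.34 CPM in KO rescue clone 1 and 4.75 and 4.2 CPM in RBM45 KO clone 2. It had 2.91 and 2.62 CPM in RBM45 KO clone 1, 4.22 and 3.41 CPM in Cas9 control clone 2, 3.79 and 3.98 CPM in Cas9 control clone 1 and 4.02 and 3.48 CPM in WT. Group means ran from 2.62 CPM in KO rescue clone 1 to 4.47 CPM in RBM45 KO clone 2, and no comparison of levels called Pcdhga1. The antisense gene Gm37118 covers 406 of the 2573 bases of its bin, with 0.34 to 1.11 CPM in its own overlapping bin. The kit did not mark strand, so reads of the 2 genes cannot be told apart there.

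Pcdhgb4, a B-type exon in the middle of the cluster (chromosome 18, 37720383 to 37722917, plus strand), differed widely between the lines. Pcdhgb4 had 0.13 and 0.21 CPM in METTL3 KO, 3.51 and 2.98 CPM in KO rescue clone 2, 0.68 and 0.69 CPM in KO rescue clone 1 and 2.95 and 1.99 CPM in RBM45 KO clone 2. It had 0.31 and 0.84 CPM in RBM45 KO clone 1, 0.56 and 0.42 CPM in Cas9 control clone 2, 0.60 and 0.70 CPM in Cas9 control clone 1 and 1.25 and 0.90 CPM in WT. KO rescue clone 2 and RBM45 KO clone 2 were above all other groups, and METTL3 KO was below all of them. Its share of the summed gamma level was 7.77 and 7.41% in KO rescue clone 2 and 6.84 and 4.79% in RBM45 KO clone 2, against 0.24 and 0.45% in METTL3 KO and 3.46 and 2.86% in WT.

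Of the next B-type exons, Pcdhgb5 and Pcdhgb6 had their 2 highest group means in the same groups as Pcdhgb4, and Pcdhgb7 and Pcdhgb8 did not. For Pcdhgb5 and Pcdhgb6 the RBM45 KO clone 2 libraries overlapped those of other groups. The first of these exons, Pcdhgb5, had a highest group mean just under 1 CPM. Pcdhgb5 had 0.64 and 0.48 CPM in METTL3 KO, 1.22 and 0.78 CPM in KO rescue clone 2, 0.11 and 0.087 CPM in KO rescue clone 1 and 0.66 and 0.59 CPM in RBM45 KO clone 2. It had 0.10 and 0.17 CPM in RBM45 KO clone 1, 0.19 and 0.56 CPM in Cas9 control clone 2, 0.36 and 0.21 CPM in Cas9 control clone 1 and 0.69 and 0.30 CPM in WT. In this bin Pcdhgb5 was highest in KO rescue clone 2 and near the limit of detection in KO rescue clone 1 and RBM45 KO clone 1. A second Pcdhgb5 bin of 2063 bases had 1.22 and 0.78 CPM in KO rescue clone 2 and 0.23 and 0.43 CPM in KO rescue clone 1. It had 0 and 0.17 CPM in RBM45 KO clone 1. Pcdhgb6 had 0.64 and 0.21 CPM in METTL3 KO, 1.07 and 0.97 CPM in KO rescue clone 2, 0.51 and 0 CPM in KO rescue clone 1 and 1.07 and 0.37 CPM in RBM45 KO clone 2. It had 0.10 and 0.17 CPM in RBM45 KO clone 1, 0.28 and 0.14 CPM in Cas9 control clone 2, 0.18 and 0.32 CPM in Cas9 control clone 1 and 0 and 0.099 CPM in WT. Pcdhgb6 was highest on average in KO rescue clone 2, and its 2 libraries differed widely in KO rescue clone 1, RBM45 KO clone 2 and METTL3 KO. Pcdhgb8 had 1.93 and 1.04 CPM in METTL3 KO, 0.76 and 0.52 CPM in KO rescue clone 2, 0.51 and 0.43 CPM in KO rescue clone 1 and 0.33 and 0.22 CPM in RBM45 KO clone 2. It had 0.42 and 0.34 CPM in RBM45 KO clone 1, 0.094 and 0.28 CPM in Cas9 control clone 2, 0.42 and 0.16 CPM in Cas9 control clone 1 and 0.28 and 0.099 CPM in WT. Pcdhgb8 was highest in METTL3 KO, where both libraries lay above all others. Pcdhgb7 had 0.90 and 0.83 CPM in METTL3 KO, 1.83 and 1.04 CPM in KO rescue clone 2, 0.80 and 1.56 CPM in KO rescue clone 1 and 0.82 and 0.96 CPM in RBM45 KO clone 2. It had 0.52 and 0.76 CPM in RBM45 KO clone 1, 0.28 and 0.49 CPM in Cas9 control clone 2, 0.48 and 0.54 CPM in Cas9 control clone 1 and 0.83 and 0.30 CPM in WT. Pcdhgb7 was highest on average in the 2 rescue clones, and most groups overlapped. The antisense gene Gm26672 covers 771 of the 2594 bases of the Pcdhgb7 bin. Its most overlapping bin had 0.51 and 0.69 CPM in KO rescue clone 1 and 0.33 and 0.52 CPM in RBM45 KO clone 2. It had 0 to 0.32 CPM in the other groups, and reads of the 2 genes cannot be told apart there.

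Of the remaining alternate gamma exons, 4 averaged at least 1 CPM in a group. Pcdhga6 had 1.29 and 1.25 CPM in METTL3 KO, 1.07 and 1.62 CPM in KO rescue clone 2, 1.76 and 1.04 CPM in KO rescue clone 1 and 1.39 and 1.47 CPM in RBM45 KO clone 2. It had 1.45 and 1.01 CPM in RBM45 KO clone 1, 1.03 and 0.70 CPM in Cas9 control clone 2, 0.78 and 0.59 CPM in Cas9 control clone 1 and 0.55 and 0.70 CPM in WT. Pcdhga6 was lowest on average in WT and the 2 Cas9 control clones. Pcdhga3 had 0.90 and 0.76 CPM in METTL3 KO, 0.61 and 0.45 CPM in KO rescue clone 2, 0.68 and 0.17 CPM in KO rescue clone 1 and 0.16 and 0.52 CPM in RBM45 KO clone 2. It had 0.73 and 0.59 CPM in RBM45 KO clone 1, 0.94 and 0.97 CPM in Cas9 control clone 2, 1.63 and 1.4 CPM in Cas9 control clone 1 and 0.42 and 0.80 CPM in WT. Pcdhga3 was highest in Cas9 control clone 1. Pcdhga2 had 0.90 and 0.62 CPM in METTL3 KO, 1.22 and 0.84 CPM in KO rescue clone 2, 0.80 and 0.43 CPM in KO rescue clone 1 and 0.82 and 0.66 CPM in RBM45 KO clone 2. It had 0.42 and 0.51 CPM in RBM45 KO clone 1, 0.66 and 0.49 CPM in Cas9 control clone 2, 1.08 and 1.61 CPM in Cas9 control clone 1 and 0.69 and 0.90 CPM in WT. Pcdhga2, too, was highest on average there. Pcdhgb1 had 0.77 and 1.11 CPM in METTL3 KO, 0.69 and 0.71 CPM in KO rescue clone 2, 0.40 and 0.52 CPM in KO rescue clone 1 and 0.33 and 0.88 CPM in RBM45 KO clone 2. It had 0.83 and 0.84 CPM in RBM45 KO clone 1, 0.56 and 0.76 CPM in Cas9 control clone 2, 0.90 and 1.18 CPM in Cas9 control clone 1 and 0.55 and 0.70 CPM in WT. Pcdhgb1 overlapped between most groups, and 1 RBM45 KO clone 2 library lay far below the other.

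The other 9 gamma exons (Pcdhga4, Pcdhga5, Pcdhga7 to Pcdhga12 and Pcdhgb2) stayed below a group mean of 1 CPM, at 0 to 1.32 CPM per library. Every gamma exon had counts in some libraries, and 16 of the 22 had counts in all 16. The number of gamma exons with at least 3 counts in both libraries of a group was 21 in METTL3 KO, 21 in KO rescue clone 2, 16 in KO rescue clone 1, 19 in RBM45 KO clone 2, 14 in RBM45 KO clone 1, 15 in Cas9 control clone 2, 21 in Cas9 control clone 1 and 13 in WT. The deepest libraries were those of Cas9 control clone 1 and the shallowest was a METTL3 KO library, and these numbers were not adjusted for depth.

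**Figure D2:**
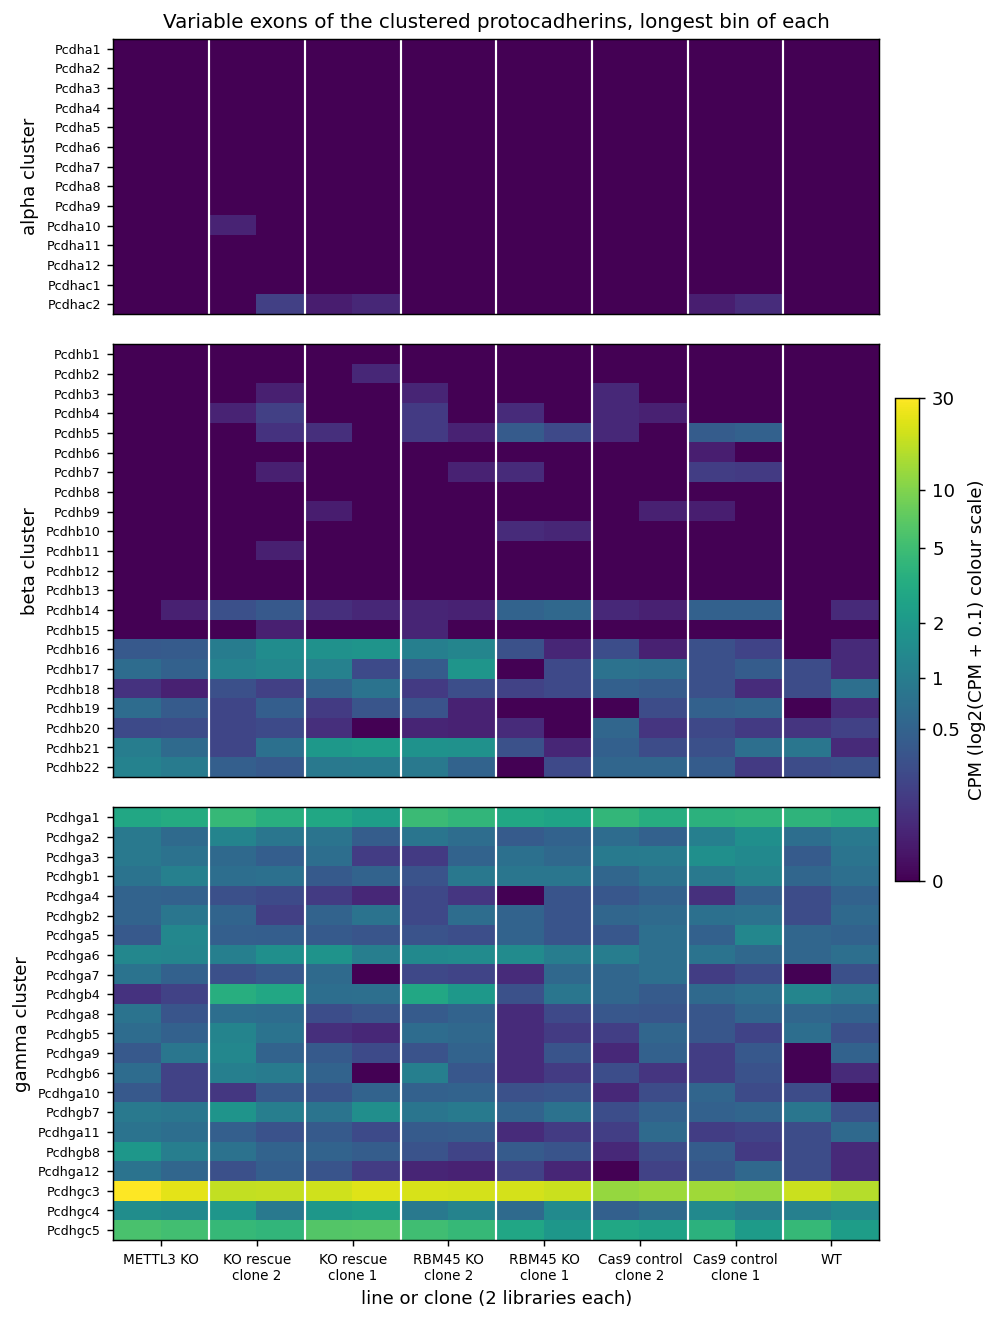
Level of the longest bin of all 58 variable exons (rows, in the order of the chromosome within each cluster) in the 16 libraries (columns, 2 for each line or clone), as CPM on a log2(CPM + 0.1) colour scale. The alpha block is dark throughout, the beta block is lit mainly from Pcdhb14 to Pcdhb22, and Pcdhgc3 is the brightest row.

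In the beta cluster, counts were concentrated at the end nearest the gamma cluster. The first 13 genes, Pcdhb1 to Pcdhb13, never exceeded 0.48 CPM in a library, and 4 of them (Pcdhb1, Pcdhb8, Pcdhb12 and Pcdhb13) had no count at all. Pcdhb16 (chromosome 18, 37477814 to 37483038) split the groups. Pcdhb16 had 0.39 and 0.42 CPM in METTL3 KO, 0.99 and 1.49 CPM in KO rescue clone 2, 1.71 and 1.82 CPM in KO rescue clone 1 and 1.07 and 1.25 CPM in RBM45 KO clone 2. It had 0.31 and 0.084 CPM in RBM45 KO clone 1, 0.28 and 0.070 CPM in Cas9 control clone 2, 0.30 and 0.21 CPM in Cas9 control clone 1 and 0 and 0.099 CPM in WT. All 6 libraries of the rescue clones and RBM45 KO clone 2 lay above the other 10 libraries. Pcdhb21 had 1.03 and 0.62 CPM in METTL3 KO, 0.23 and 0.71 CPM in KO rescue clone 2, 1.99 and 2.26 CPM in KO rescue clone 1 and 1.72 and 1.69 CPM in RBM45 KO clone 2. It had 0.31 and 0.084 CPM in RBM45 KO clone 1, 0.47 and 0.28 CPM in Cas9 control clone 2, 0.30 and 0.70 CPM in Cas9 control clone 1 and 0.83 and 0.099 CPM in WT. Pcdhb21 was high in KO rescue clone 1 and RBM45 KO clone 2, and KO rescue clone 2 lay with the low groups.

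Pcdhb17 had 0.64 and 0.48 CPM in METTL3 KO, 1.14 and 1.3 CPM in KO rescue clone 2, 1.14 and 0.26 CPM in KO rescue clone 1 and 0.41 and 1.84 CPM in RBM45 KO clone 2. It had 0 and 0.25 CPM in RBM45 KO clone 1, 0.75 and 0.70 CPM in Cas9 control clone 2, 0.30 and 0.43 CPM in Cas9 control clone 1 and 0.28 and 0.099 CPM in WT. The libraries of RBM45 KO clone 2 and of KO rescue clone 1 disagreed with each other for Pcdhb17, and both KO rescue clone 2 libraries were above 1 CPM. Pcdhb22 had 1.16 and 0.97 CPM in METTL3 KO, 0.46 and 0.39 CPM in KO rescue clone 2, 0.91 and 0.95 CPM in KO rescue clone 1 and 0.90 and 0.52 CPM in RBM45 KO clone 2. It had 0 and 0.25 CPM in RBM45 KO clone 1, 0.56 and 0.56 CPM in Cas9 control clone 2, 0.42 and 0.16 CPM in Cas9 control clone 1 and 0.28 and 0.30 CPM in WT. Pcdhb22 was highest in METTL3 KO and KO rescue clone 1 and lowest in RBM45 KO clone 1. A second Pcdhb22 bin of 2115 bases next to this one, named after its values were seen, had 2.32 and 1.52 CPM in METTL3 KO, 0.69 and 0.39 CPM in KO rescue clone 2, 1.2 and 0.61 CPM in KO rescue clone 1, 1.56 and 1.25 CPM in RBM45 KO clone 2 and 0.10 and 0.084 CPM in RBM45 KO clone 1. It had 1.31 and 0.76 CPM in Cas9 control clone 2, 0.30 and 0.11 CPM in Cas9 control clone 1 and 0.28 and 0.099 CPM in WT.

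Lower beta exons also differed in where they appeared. Pcdhb5 had 0.42 and 0.25 CPM in RBM45 KO clone 1 and 0.42 and 0.48 CPM in Cas9 control clone 1, and no count in METTL3 KO or WT. Pcdhb14 had 0.52 and 0.59 CPM in RBM45 KO clone 1 and 0.48 and 0.48 CPM in Cas9 control clone 1, against 0 to 0.39 CPM in the other groups. These exons, named after their values were seen, did not pass the filter of the 16-library fit and have no test there. The number of beta exons with at least 3 counts in both libraries was 5 in METTL3 KO, 8 in KO rescue clone 2, 6 in KO rescue clone 1, 4 in RBM45 KO clone 2, 2 in RBM45 KO clone 1, 4 in Cas9 control clone 2, 9 in Cas9 control clone 1 and 0 in WT. Multi-mapping reads were left out of the counts, so levels of beta genes with near-identical neighbours are uncertain.

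**Figure D3:**
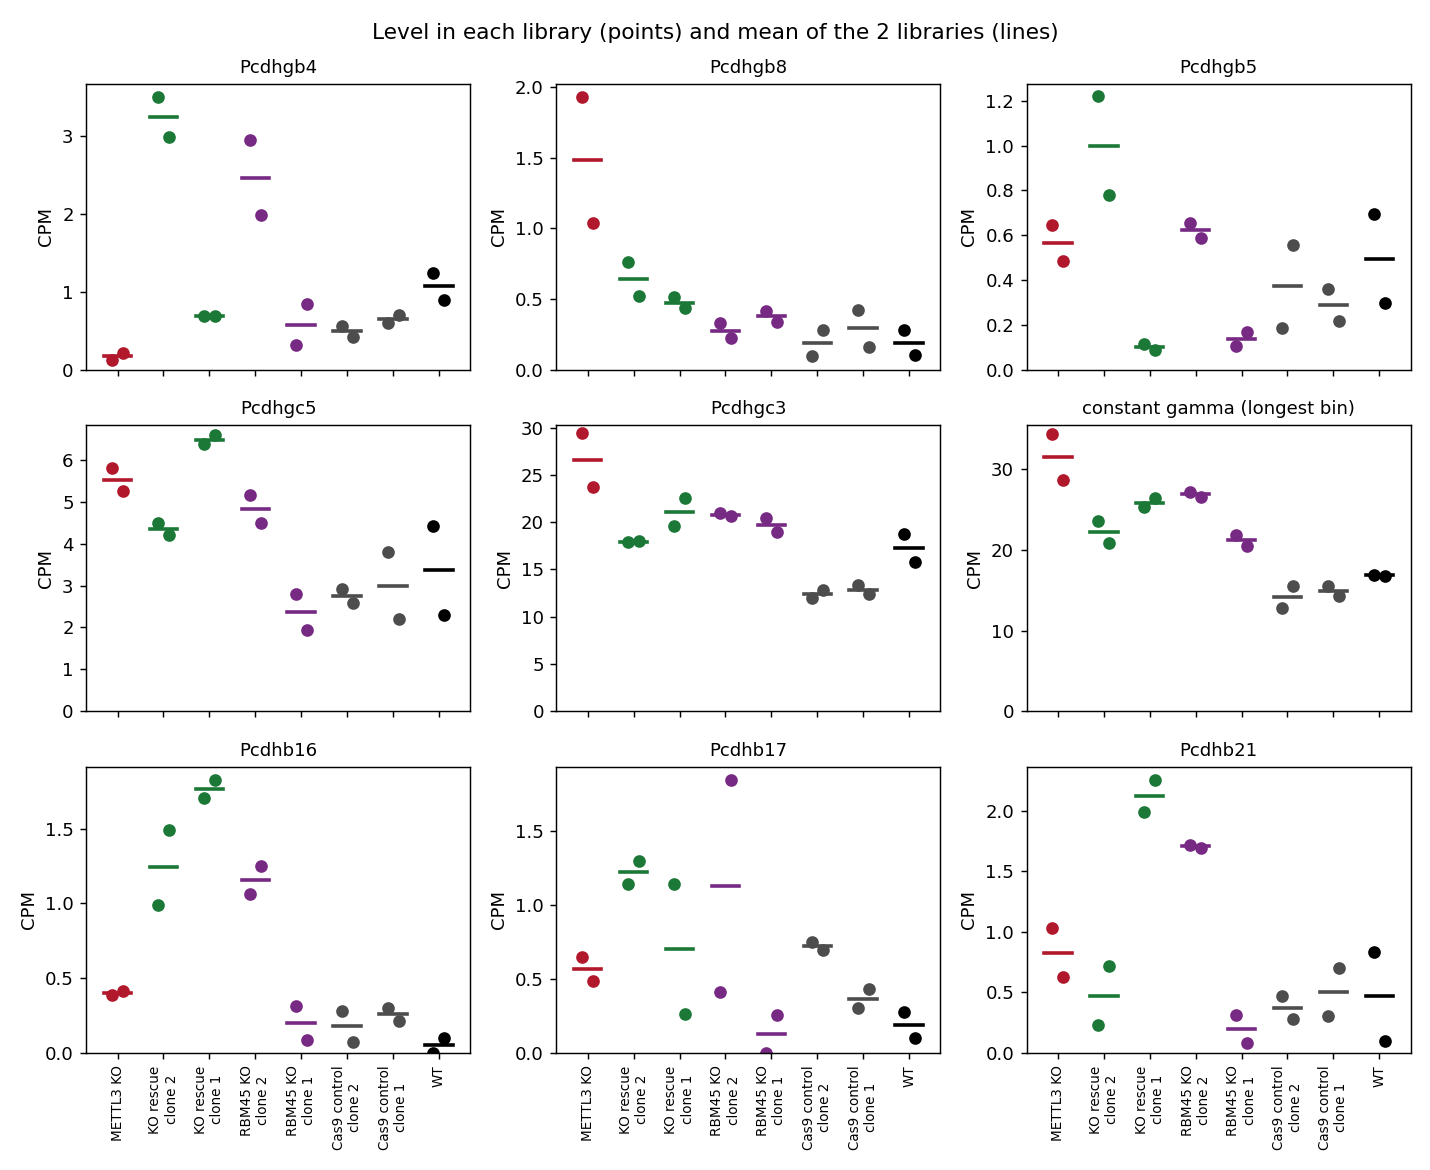
CPM (linear axes from 0) of 8 variable exons and the longest gamma constant bin in each library (points, 2 for each line or clone) with their mean (lines). Pcdhgb4 is high in KO rescue clone 2 and RBM45 KO clone 2, Pcdhb16 in both rescue clones and RBM45 KO clone 2, and Pcdhgb8, Pcdhgc3 and the constant bin are highest in METTL3 KO.

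For METTL3 KO against WT, 22 of the 58 variable exons passed the filter on low counts and were tested with the rest of the table by the quasi-likelihood F test of edgeR, adjusted over all bins by Benjamini-Hochberg. Pcdhgb4 fell and Pcdhgb8 and Pcdhgc3 rose in METTL3 KO, which makes 3 called exons, 13.6% of those tested, beside 3.88% of all bins called (1.83% higher and 2.06% lower). On the log2 scale, Pcdhgb4 changed by -2.48 ± 0.68 (SE), adjusted p = 0.026, Pcdhgb8 by 2.93 ± 0.75 (SE), adjusted p = 0.016, and Pcdhgc3 by 0.62 ± 0.17 (SE), adjusted p = 0.026. The WT value of Pcdhgb8 rests on few counts, with 30 counts against 3, a ratio of 7.78 with an exact 95% counting interval of 2.42 to 39.8. The longest gamma constant bin rose by 0.90 ± 0.17 (SE), adjusted p = 0.00052, and 2 of 9 tested gamma constant bins were called, both higher. The second Pcdhb22 bin rose by 3.32 ± 0.67 (SE), adjusted p = 0.0016.

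The calls on variable exons in METTL3 KO were close to the threshold. With DESeq2's Wald test none of the 3 passed (adjusted p = 0.17 for Pcdhgb4, 0.17 for Pcdhgb8 and 0.071 for Pcdhgc3), and without 1 library at a time 0 or 1 exon passed edgeR's test. Only Pcdhgb8 passed without METTL3 KO replicate 2, only Pcdhgb4 without WT replicate 2, and none without the first replicate of either line. The median log2 change of the 22 tested exons was 0.67, beside 0.01 for all tested bins, and exons that passed the filter only through the group where they are high are among the 22. The astrocyte markers summed to 2.81 and 2.8 CPM in METTL3 KO and 8.06 and 14.2 CPM in WT, where 1 of 4 was tested and fell. The neuron markers summed to 82.1 and 89.8 CPM in METTL3 KO and 42.3 and 68.9 CPM in WT, where 1 of 3 tested, Map2, rose over gene bodies. With the exon bins of each gene added together instead, 3 neuron markers were tested and none was called. The mesenchymal markers summed to 1399 and 1445 CPM in METTL3 KO and 2164 and 2081 CPM in WT (2 of 4 higher, 2 lower). The microglia markers summed to 31.4 and 31.3 CPM in METTL3 KO and 52.7 and 38.9 CPM in WT, and Cx3cr1 among them changed by -0.54 ± 0.14, adjusted p = 0.0089 on the log2 scale by edgeR's test. That change was read over the gene body, and with exon bins added together Cx3cr1 did not pass the filter. Over gene bodies, 22.9% of all genes were called in METTL3 KO over WT (11.2% higher and 11.8% lower). The part of these marker differences in the protocadherin values was not tested.

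The 2 RBM45 KO clones differed from each other at 5 variable exons, all higher in clone 2. They were 22.7% of those tested, beside 3.98% of all bins called (1.74% higher and 2.23% lower). In RBM45 KO clone 2 over clone 1, Pcdhb21 changed by 3.13 ± 0.64 (SE), adjusted p = 0.0011, Pcdhb17 by 2.97 ± 0.80 (SE), adjusted p = 0.02, and Pcdhb16 by 2.58 ± 0.65 (SE), adjusted p = 0.011. Pcdhgb4 changed by 2.01 ± 0.41 (SE), adjusted p = 0.0011, and Pcdhgc5 by 1.04 ± 0.28 (SE), adjusted p = 0.021. The clone 1 value of Pcdhb17 rests on few counts, with 30 counts against 3, a ratio of 8.33 with an exact 95% counting interval of 2.59 to 42.6. Pcdhgc3, with a change of 0.08 ± 0.16 (SE), and the constant gamma bin, with 0.34 ± 0.16 (SE), did not pass. The second Pcdhb22 bin rose by 3.77 ± 0.74 (SE), adjusted p = 0.00053.

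Of the 5 exons, Pcdhb21 and Pcdhgb4 passed DESeq2's Wald test as well, and the others did not (adjusted p = 0.17 for Pcdhb16, 0.18 for Pcdhb17 and 0.14 for Pcdhgc5). Without 1 library at a time, 2 or 3 exons passed. They were Pcdhb16, Pcdhb21 and Pcdhgc5 without clone 1 replicate 1, Pcdhb17 and Pcdhgb4 without clone 1 replicate 2, Pcdhb16, Pcdhb17 and Pcdhb21 without clone 2 replicate 1, and Pcdhb21 and Pcdhgb4 without clone 2 replicate 2. Pcdhb17 moved to 1.5 (adjusted p = 0.68) in the last of these fits. The mesenchymal markers summed to 2772 and 2625 CPM in RBM45 KO clone 2 and 4679 and 4312 CPM in clone 1 (3 of 4 lower), and the neuron markers to 45 and 59.1 CPM in RBM45 KO clone 2 and 108 and 112 CPM in clone 1 (1 of 3 tested lower). The astrocyte markers summed to 0.75 and 0.83 CPM in RBM45 KO clone 2 and 1.83 and 2.07 CPM in clone 1, where the 1 tested, Slc1a3, changed by -2.15 ± 0.60, adjusted p = 0.021 on the log2 scale by edgeR's test. With the exon bins of each gene added together instead, 1 astrocyte marker was tested and it was not called. Over gene bodies, 14.1% of all genes were called between these clones (6.49% higher and 7.65% lower). The part of these marker differences in the result was not tested.

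The 2 KO rescue clones differed at 3 variable exons, 13.6% of those tested, beside 0.278% of all bins called (0.0562% higher and 0.222% lower). In KO rescue clone 2 over clone 1, Pcdhgb4 rose by 2.22 ± 0.35 (SE), adjusted p = 0.00015, Pcdhgb5 rose by 3.14 ± 0.73 (SE), adjusted p = 0.036, and Pcdhb21 changed by -2.09 ± 0.46 (SE), adjusted p = 0.019. The clone 1 value of Pcdhgb5 rests on few counts, with 28 counts against 3, a ratio of 9.52 with an exact 95% counting interval of 2.94 to 48.9. The second Pcdhgb5 bin was not called there and differed less, with 16 and 12 counts in clone 2 against 4 and 5 in clone 1. Pcdhgb4 passed under each of the 5 other settings of scaling, filter, test, bin and block that were tried and without each library in turn, with log2 changes of 2.11 to 2.33 without 1 library at a time. Pcdhgb5 and Pcdhb21 did not pass DESeq2's Wald test (adjusted p = 0.76 for Pcdhgb5 and 0.64 for Pcdhb21), and Pcdhgb5 did not pass without any 1 of the 4 libraries (adjusted p = 0.093 to 0.59). Pcdhb21 passed without clone 2 replicate 2, where its log2 change was -3.16, and did not pass without any other 1 of the 4 libraries, where it was -2.18 to -1.55 (adjusted p = 0.092 to 0.66). The mesenchymal markers summed to 2138 and 2453 CPM in KO rescue clone 2 and 2700.0 and 2823 CPM in clone 1 (1 of 4 lower). The neuron markers summed to 76.2 and 75.6 CPM in KO rescue clone 2 and 90.3 and 76 CPM in clone 1, where 1 of 3 tested, Gap43, changed by -2.26 ± 0.38, adjusted p = 0.002 on the log2 scale by edgeR's test. Over gene bodies, 2.29% of all genes were called between these clones. The part of such marker differences in the result was not tested.

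Between the control lines no variable exon was called by edgeR's test or by DESeq2's. For Cas9 control clone 2 over clone 1, 6.83% of all bins were called, and 2 of the 22 tested exons had an unadjusted p under 0.05, both lower. The exon nearest the threshold was Pcdhga2, with -1.26 ± 0.44 (SE), adjusted p = 0.074. The second Pcdhb22 bin rose there, by 2.28 ± 0.59 (SE), adjusted p = 0.0099, and Pcdhb22 was the 1 exon called when all bins of each exon were added together. For Cas9 control clone 1 over WT, 2.6% of all bins were called and 2 variable exons had an unadjusted p under 0.05. For Cas9 control clone 2 over WT, the share was 2.1%, with 4 such exons. Pcdhgc3 changed by -0.42 ± 0.17 (SE), adjusted p = 0.21 in the first of these and by -0.47 ± 0.18 (SE), adjusted p = 0.18 in the second. With 2 libraries a group and few counts, these results do not show that the lines were alike. The astrocyte markers summed to 2.555 and 1.88 CPM in Cas9 control clone 1 and 16.3 and 25.1 CPM in clone 2. The mesenchymal markers summed to 3831 and 3676 CPM in clone 1 and 2228 and 2271 CPM in clone 2. In Cas9 control clone 1 over WT, Slc1a3 changed by -2.45 ± 0.32, adjusted p = 5.4e-05, and Map2 by 1.16 ± 0.21, adjusted p = 0.0016. Both were read over gene bodies by edgeR's test, beside 12.2% of all genes called. The part of these marker differences in these results was not tested.

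**Figure D4:**
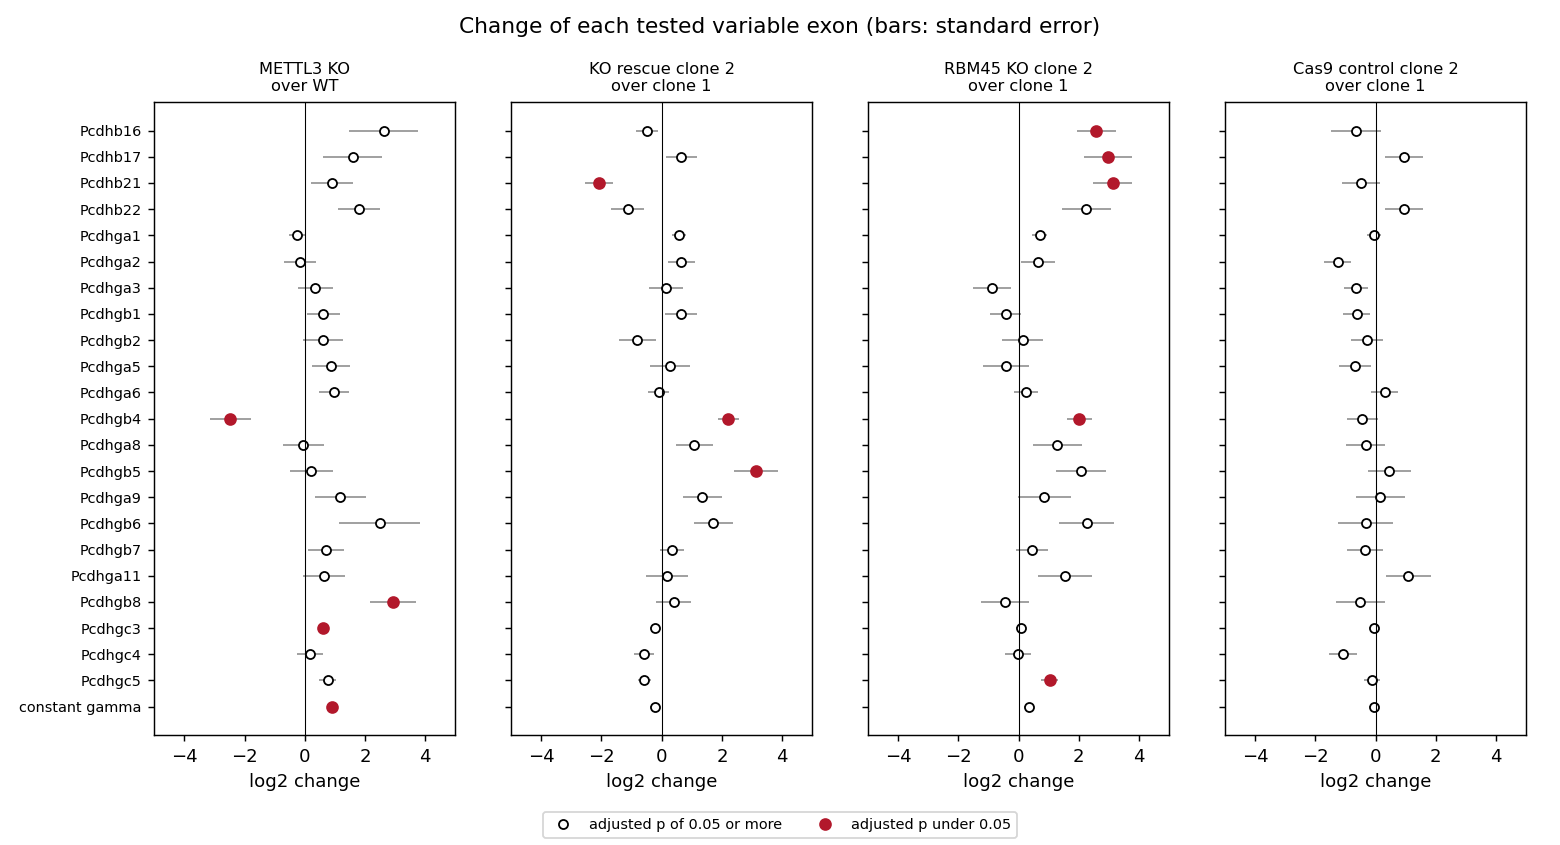
Log2 change (points) with its standard error (bars) of the 22 tested variable exons and the longest gamma constant bin in 4 comparisons of lines or clones, with filled points where the adjusted p is under 0.05. Pcdhgb4 is called in 3 of the 4 panels, lower in METTL3 KO and higher in clone 2 of KO rescue and of RBM45 KO, and no point is filled for the Cas9 control clones.

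For the 3 genotype comparisons, the 2 libraries of a clone were added together and the 6 clones were the units, and 28 variable exons passed the filter. No variable exon was called by edgeR's test or by DESeq2's in any of the 3. For RBM45 KO over Cas9 control, 0.00851% of all bins were called, and 5 of the 28 exons had an unadjusted p under 0.05 (3 higher and 2 lower). For KO rescue over RBM45 KO, 0% of bins were called and no variable exon had an unadjusted p under 0.05. For KO rescue over Cas9 control, 0.000655% of bins were called, and 9 variable exons had an unadjusted p under 0.05, 8 of them higher. Pcdhb16 was nearest the threshold in the last comparison, with 2.77 ± 0.63 (SE), adjusted p = 0.18. Without a filter on low counts, 3 exons (Pcdhb16, Pcdhgb4 and Pcdhgb7) passed in that comparison. The share of all bins called without the filter was not taken, so these calls are not read as a difference between genotypes.

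The spread between clones of a genotype was wide for the exons that differed between clones. Pcdhgb4 did not pass, with a change of 1.43 ± 0.74 (SE), adjusted p = 0.89, in RBM45 KO over Cas9 control and of 1.74 ± 0.72 (SE), adjusted p = 0.35, in KO rescue over Cas9 control. Pcdhgc3 differed less within a genotype and did not pass either, with changes of 0.67 ± 0.19 (SE), adjusted p = 0.89, in RBM45 KO over Cas9 control and 0.59 ± 0.19 (SE), adjusted p = 0.25, in KO rescue over Cas9 control. Its 4 RBM45 KO libraries (18.9 to 21 CPM) and 4 KO rescue libraries (17.8 to 22.6 CPM) lay above the 4 Cas9 control libraries (12 to 13.3 CPM), and the WT libraries, at 18.7 and 15.8 CPM, lay above the controls too. The constant gamma bin had a change of 0.71 ± 0.20 (SE), adjusted p = 0.89, in RBM45 KO over Cas9 control. The 2 comparisons with Cas9 control share the control clones. Clones also did not group by genotype over all bins. Between RBM45 KO clone 2 and KO rescue clones 2 and 1, 0.0769% and 0.108% of bins were called. Between RBM45 KO clone 1 and Cas9 control clone 1 it was 0.0961%. Within a genotype it was 3.98% for RBM45 KO, 6.83% for Cas9 control and 0.278% for KO rescue.

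A single test across the 8 lines and clones, added after the data were seen, called 13 of the 22 tested exons (59.1%), beside 24.8% of all bins. They were Pcdhb16, Pcdhb17, Pcdhb21, Pcdhb22, Pcdhga3, Pcdhgb4 to Pcdhgb8, and all 3 gamma C-type exons. The smallest adjusted p were those of Pcdhgb4 (3.9e-10), Pcdhb16 (1e-07), Pcdhb21 (4.5e-06) and Pcdhgc3 (5.1e-06), all by edgeR's quasi-likelihood test. All 9 tested gamma constant bins were called too. Among the A-type gamma exons, Pcdhga3 was the only one of the 8 tested to pass, and 5 of the 7 tested B-type exons passed.

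Taken pair by pair, 22 of the 28 pairs of lines had a called variable exon, with at most 6 in a pair, and 6 had none. Over all pairs, 12.7% of tests on variable exons passed, beside 5.91% of tests on all bins, and pairs that share a line are not independent. Pcdhb16 was called in 14 pairs, Pcdhgb4 in 12, and Pcdhb21, Pcdhgc3 and Pcdhgc5 in 10 each. KO rescue clone 2 and RBM45 KO clone 2 had no called variable exon between them and 0.0769% of all bins called, KO rescue clone 1 and RBM45 KO clone 2 had 1 (Pcdhgb4) and 0.108%, and RBM45 KO clone 1 and Cas9 control clone 1 had none and 0.0961%. KO rescue clone 2 and Cas9 control clone 2 had 5 and 11.4%. In the first 3 of these pairs, clones of different genotypes, few bins of any kind were called. The 2 Cas9 control clones had no called variable exon among the 22 tested.

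Whether an exon changed relative to the rest of its cluster was tested with diffSpliceDGE of edgeR on bins averaging 10 counts or more, which kept 8 gamma exons and no alpha exon. The Pcdha and Pcdhg genes share 1 joined identifier in the table, so the rest of the gene is here mainly Pcdhgc3 and the gamma constant exons. Pcdhgb4 was the only one of the 8 called in any of the 6 comparisons. Its use rose in KO rescue clone 2 over clone 1, by 2.40 on the log2 scale (adjusted p = 4.4e-06), where 0.000981% of all bins were called, and this call was lost without KO rescue clone 1 replicate 1 (adjusted p = 0.059). It fell in METTL3 KO over WT, by 3.13 on the log2 scale (adjusted p = 0.045), beside 0.0137% of bins, and this call was lost without any 1 of the 4 libraries (adjusted p = 0.28 to 1.00). In RBM45 KO clone 2 over clone 1 its use changed by 1.67 (adjusted p = 0.52), where 0.00196% of bins were called. Pcdhgc3 changed in use by -0.04 in METTL3 KO over WT, -0.05 in KO rescue clone 2 over clone 1 and -0.25 in RBM45 KO clone 2 over clone 1, and did not pass in any.

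In Cas9 control clone 2 over clone 1 and in the 2 control clones over WT no change in use passed among the 8 exons, beside 0.0245%, 0.000981% and 0.000981% of all bins in the order clone 2 over clone 1, clone 1 over WT and clone 2 over WT. At an unadjusted p under 0.05 there were 2, 1 and 0 of the 8 in that order. No other tool was run on use.

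The genes of the pathway were read from the gene table, over whole gene bodies, and are given as log2 changes ± SE by edgeR's quasi-likelihood test with adjustment over all genes. Of 24 regulators of the clusters (CTCF, cohesin, DNA methylation and repressor genes), all tested, 3 rose and 4 fell in METTL3 KO over WT, beside 22.9% of all genes called (11.2% higher and 11.8% lower). Tet1, which encodes an oxidase of 5-methylcytosine, rose by 2.94 ± 0.41, adjusted p = 9.7e-05. Trim28, a corepressor, changed by -0.78 ± 0.15, adjusted p = 0.0015, Uhrf1, which recruits the maintenance methyltransferase, by -0.61 ± 0.14, adjusted p = 0.0054, and Dnmt1, that methyltransferase, by -0.48 ± 0.11, adjusted p = 0.0066. In RBM45 KO clone 2 over clone 1, 2 regulators fell and none rose, beside 14.1% of genes (6.49% higher and 7.65% lower). These were Dnmt3a, a de novo DNA methyltransferase, with -0.93 ± 0.15, adjusted p = 0.00024, and Tet1, with -3.63 ± 0.82, adjusted p = 0.005. The clone 2 value of Tet1 rests on 2 counts against 23, a ratio of 0.072 with an exact 95% counting interval of 0.0083 to 0.29. In KO rescue clone 2 over clone 1 no regulator was called by edgeR's test, beside 2.29% of genes, and 1 (Stag1, a cohesin subunit gene) had an unadjusted p under 0.05, with 0.44 ± 0.21, adjusted p = 0.45. In Cas9 control clone 2 over clone 1, 3 rose and 4 fell, beside 19.6% of genes (9.96% higher and 9.61% lower), among them Trim28 (-0.77 ± 0.15, adjusted p = 0.0013), Tet1 (-3.03 ± 0.59, adjusted p = 0.0014), the cohesin loader gene Nipbl (0.94 ± 0.23, adjusted p = 0.0064) and the cohesin gene Rad21 (0.45 ± 0.13, adjusted p = 0.023).

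Of 12 non-clustered protocadherin genes, which have their own loci and no variable exons of this kind, 6 were tested between lines. In METTL3 KO over WT, Pcdh7 rose by 0.82 ± 0.19, adjusted p = 0.0058, and Pcdh15 rose by 2.17 ± 0.70, adjusted p = 0.033. These calls stood beside 22.9% of all genes called (11.2% higher and 11.8% lower). Pcdh15 was low, at 1.01 and 1.16 CPM in METTL3 KO and 0.29 and 0.20 CPM in WT. In KO rescue clone 2 over clone 1, Pcdh9 was the only one called, with -2.40 ± 0.43, adjusted p = 0.0036, beside 2.29% of genes. In RBM45 KO clone 2 over clone 1, Pcdh9 rose by 1.73 ± 0.45, adjusted p = 0.014, and Pcdh1 changed by -1.80 ± 0.40, adjusted p = 0.0041. There 14.1% of genes were called (6.49% higher and 7.65% lower). In Cas9 control clone 2 over clone 1, Pcdh18 changed by -0.96 ± 0.21, adjusted p = 0.0039, and Pcdh7 by -0.86 ± 0.20, adjusted p = 0.0045. There 19.6% of genes were called (9.96% higher and 9.61% lower). With the exon bins of each gene added together instead, 5 of the 12 were tested, and none passed in METTL3 KO over WT or between the rescue clones, whereas 1 passed between the RBM45 KO clones. Pcdh1 stood at 0 to 0.22 CPM in KO rescue and 3.92 to 5.47 CPM in Cas9 control. It had 4.09 and 3.19 CPM in RBM45 KO clone 1, 0.75 and 1.29 CPM in RBM45 KO clone 2, 2.48 and 1.77 CPM in METTL3 KO and 1.44 and 3.20 CPM in WT. No non-clustered protocadherin was called in the genotype comparisons.

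Of 16 genes for partners of the proteins (kinases, gamma-secretase and WAVE complex subunits), all tested, 2 rose and 4 fell in METTL3 KO over WT, beside 22.9% of all genes called. In RBM45 KO clone 2 over clone 1, 1 rose and 3 fell, beside 14.1% of genes, and in Cas9 control clone 2 over clone 1, 1 rose and 4 fell, beside 19.6%. Between the rescue clones none was called by edgeR's test, beside 2.29% of genes, and 2 had an unadjusted p under 0.05. Ptk2b, the gene of the kinase PYK2, which these protocadherins are known to inhibit, rose by 1.05 ± 0.19, adjusted p = 0.0011 in METTL3 KO over WT and changed by -1.37 ± 0.19, adjusted p = 7e-05 in RBM45 KO clone 2 over clone 1. Ptk2b was also higher in Cas9 control clone 1 over WT, by 0.76 ± 0.19, adjusted p = 0.014. Its levels were 20.5 and 20.5 CPM in METTL3 KO, 14.6 and 18.7 CPM in Cas9 control clone 1, 13.5 and 17.6 CPM in Cas9 control clone 2 and 11.4 and 8.59 CPM in WT. In METTL3 KO over WT, the WAVE complex genes Cyfip1 and Brk1 changed by -0.41 ± 0.12, adjusted p = 0.023, and by -0.41 ± 0.13, adjusted p = 0.028. Cyfip2, a WAVE complex subunit gene, rose by 2.59 ± 0.38, adjusted p = 9.9e-05 in RBM45 KO clone 2 over clone 1, where Ncstn, of gamma-secretase, changed by -0.74 ± 0.13, adjusted p = 0.00049, and Abi2, of the WAVE complex, by -0.64 ± 0.13, adjusted p = 0.0021. In Cas9 control clone 2 over clone 1, Cyfip1 changed by -0.70 ± 0.12, adjusted p = 0.00044, Ncstn by -0.51 ± 0.13, adjusted p = 0.0078, the WAVE complex gene Nckap1 by -0.47 ± 0.15, adjusted p = 0.031, and the receptor tyrosine kinase gene Ret rose by 1.82 ± 0.55, adjusted p = 0.028. In Cas9 control clone 1 over WT, where 12.2% of genes were called (5.57% higher and 6.61% lower), 1 regulator, 1 non-clustered protocadherin and 5 partners rose, and 1 partner fell. In Cas9 control clone 2 over WT, where 11.1% of genes were called (4.33% higher and 6.74% lower), 3 regulators, 1 non-clustered protocadherin and 2 partners rose, and 1, 1 and 2 fell in the same order. No gene of the 3 lists was called by edgeR's test in the 3 genotype comparisons fitted on clones, where 0% of all genes were called in each. At an unadjusted p under 0.05 there were 3 regulators, 2 non-clustered protocadherins and 3 partners in KO rescue over Cas9 control, 0 regulators, 1 non-clustered protocadherin and 0 partners in KO rescue over RBM45 KO and 2 regulators, 0 non-clustered protocadherins and 1 partner in RBM45 KO over Cas9 control.

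Of the bins that were not the longest of a variable exon, 4 variable ones passed the filter of the 16-library fit, in Pcdhgb5, Pcdhgc3 and Pcdhb22. The antisense gene BC037039 covers 48 of the 1103 bases of the longest Pcdhgc3 bin and had 13.8 to 31.2 CPM in its own bin. Antisense genes overlapped the longest bin of 12 of the 58 variable exons. Gm26672, over Pcdhga10, Pcdhga11, Pcdhga12 and Pcdhgb7, had 0.10 to 1.6 CPM in its bin over Pcdhga10, against 0 to 0.54 CPM for Pcdhga10 itself. The 14 bins of other annotated exons and the 1 bin shared by Pcdhb21 and Pcdhb22 were low, with the 14 summing to 2.83 and 2.08 CPM in METTL3 KO and 0.55 to 2.0 CPM in the other groups.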

How the data were processed

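RNA of 16 mHiPPoE-2 libraries (8 lines or clones, 2 libraries each) was ribodepleted and sequenced, and the kit named in the labels' protocols keeps no strand information. The authors deposited raw fragment counts per exon bin and per gene, made, per the file headers, with featureCounts 1.6.3 on exons of Ensembl 98 (GRCm38) flattened into bins. A fragment was counted in each bin that held at least 0.1 of it and only on 1 strand, and multi-mapping reads were left out, per the file headers, so reads of antisense genes cannot be told apart and close paralogs lose reads. HISAT2 2.1.0 and mm10 are named in the submitters' processing notes. The columns of the Cas9 control libraries carry a name that matches no label and were assigned because no other group was left.

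Exons were matched by position to GENCODE mouse release 21, since the joined gene identifier of the alpha and gamma clusters is cut at 255 characters (128 bins). GENCODE gives 2 genes the symbol Pcdha11, and the one that RefSeq names Pcdha10 at that position is called Pcdha10 here. Each variable exon was read from its longest bin. Levels are CPM of the TMM-scaled library size. Exon bins kept by filterByExpr (135212 in 16 libraries, 152778 in 6 clones) were tested with edgeR 4.0.16 (quasi-likelihood test, R 4.3.3), with Benjamini-Hochberg adjustment over all bins and a threshold of 0.05. The 16 libraries shared 1 estimate of the spread with 8 residual degrees of freedom, and the 6 clones had 3. Use of an exon was tested with diffSpliceDGE on the 101929 bins averaging 10 counts or more. The gene lists (regulators, non-clustered protocadherins, partners, and markers of neurons, astrocytes, oligodendrocytes, microglia and mesenchymal cells) were read from the gene table. DESeq2 1.42.0 was an alternative, beside other scaling, no filter, all bins of an exon, a replicate block and leaving out each library or clone. The scripts were tested on simulated data. Counting intervals are exact at 95%.

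Values in every library are given for exons that averaged at least 1 CPM in a group (and for Pcdhgb5, called at a mean just under it), tests for up to 5 called exons in a comparison with the greatest change, and up to 4 genes of a list with the smallest p. The members and lists were chosen with earlier results of these data known. Sequences of the exons are not given here. Intron counts were not used. The values of 1 gene of the partner list are not reported here.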

Additional observations from a re-analysis of the deposited data

Results flagged for a closer look

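Single libraries far from the other 3 of the same genotype were looked for in 51 sets of 4 libraries (RBM45 KO, KO rescue and Cas9 control, 2 clones each), and 2 were found. For 4 interchangeable libraries chance alone flags about 1 in 20 sets. The libraries of 2 clones are not interchangeable, so this rate does not hold for these sets. Pcdhgb1 had 0.33 CPM in RBM45 KO clone 2 replicate 1, against 0.83 to 0.88 CPM in the other 3 RBM45 KO libraries. Pcdhb17 had 0.26 CPM in KO rescue clone 1 replicate 2, against 1.14 to 1.30 CPM in the other 3 KO rescue libraries.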

How the results depend on the processing

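No result reversed under any setting tried. With DESeq2's Wald test in place of edgeR's, 0 variable exons were called in METTL3 KO over WT, 2 in RBM45 KO clone 2 over clone 1 and 1 in KO rescue clone 2 over clone 1, and the cause was not tested. With all bins of an exon added together, 1 was called in Cas9 control clone 2 over clone 1, and with no filter on low counts 3 were called in KO rescue over Cas9 control. The share of all bins called was not taken under these other settings. With the exon bins of a gene added together in place of gene bodies, 5 of the 12 non-clustered protocadherins were tested, and those called were 0 in METTL3 KO over WT, 1 in RBM45 KO clone 2 over clone 1 and 0 in KO rescue clone 2 over clone 1. The regulators called in Cas9 control clone 1 over WT were 0, and the partners called were 2 in Cas9 control clone 2 over WT and 1 in KO rescue clone 2 over clone 1. Without 1 library at a time, called exons ran from 0 to 1 in METTL3 KO over WT, 2 to 3 in RBM45 KO clone 2 over clone 1, 1 to 2 in KO rescue clone 2 over clone 1 and 10 to 13 across the 8 groups. Without 1 clone at a time they ran from 0 to 1 in KO rescue over Cas9 control. Changed use ran from 0 to 0 in METTL3 KO over WT and 0 to 1 in KO rescue clone 2 over clone 1. The share of the leading beta and gamma exon in each group was also read per kilobase and over all bins of each exon. By these readings 24 shares moved by at least the SD of their 2 libraries, and 8 did not.

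With replicate number as a block, the called exons stayed at 3 in METTL3 KO over WT, 5 in RBM45 KO clone 2 over clone 1, 3 in KO rescue clone 2 over clone 1 and 0 in the 3 control comparisons, and 13 were called across the 8 groups. Same-numbered libraries of different groups deviated together with correlations of -0.176 to 0.185 over 96481 bins, and 6 of the 28 were over 0.1 and 5 under -0.1, so the numbers were not taken to pair the libraries. Of the single exons named, log2 changes kept their direction in every setting. Most beta and alternate gamma exons had few counts in a library, which limits what could be called, and with 2 clones a genotype only large differences between genotypes can pass.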
